A study of Mus musculus with 7 samples.

Results

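The 9 genes described here make, carry, sense and remove retinoic acid, and they were chosen by symbol among the 24346 genes of the deposited table. They are the enzymes Aldh1a1, Aldh1a2 and Aldh1a3, the receptors Rara, Rarb and Rarg, the binding proteins Crabp1 and Crabp2, and the degrading enzyme Cyp26b1. RNA was sequenced from primary hippocampal neurospheres, floating balls of cultured neural stem cells (NSCs) and their progeny, each sample grown with EGF and FGF from the cells of a single C57/BL6 mouse. The 4 control libraries (mice WT_215, WT_116, WT_213 and WT_220) are labelled wild type, and the methods describe controls as littermates carrying Med23 flox/+ or Med23 flox/flox. The 3 Med23 CKO libraries (mice KO_117, KO_214 and KO_218) came from Nestin-CreER:Med23 flox/flox mice, in which tamoxifen removes floxed exons of Med23, a subunit of the Mediator complex that links transcription factors to RNA polymerase II. On 5 days both groups were given 200 mg/kg of tamoxifen by gavage, and cultures were made at 2 months of age. The labels place the tamoxifen at 2 months, whereas the methods place it at 1 month for cultures. Cre was driven by Nestin, so cells in a neurosphere that never expressed Nestin would keep Med23.

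Retinoic acid is a small lipid signal made from vitamin A. Retinol is oxidised to retinal by retinol dehydrogenases, and the Aldh1a enzymes turn retinal into retinoic acid, which Crabp proteins carry within the cell and Cyp26 enzymes destroy. In the nucleus it binds the Rar receptors, which sit on DNA with Rxr partners and switch target genes on when the ligand is present. In the adult brain the meninges are a known source of retinoic acid, and the signal is known for promoting neuronal differentiation of hippocampal progenitors.

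The DNA element that these receptors bind is a direct repeat of short half-sites. Promoter windows from RefSeq (build GRCm38.p6, 250 bases before to 50 after a start) were at hand for 7 of the 9 genes, in 12 windows. They were searched on both strands for half-sites in tandem with a spacer of 1, 2 or 5 bases. A half-site read AGGTCA or was one of 3 variants, of which the first read AGTTCA, the second read GGGTCA and the last read GGTTCA. Aldh1a3 and Crabp2 had no window and were not searched. Of the 7 genes searched, only Rarb held such a repeat, with a spacer of 5 bases, and in the wider retinoid lists so did Cyp26a1 (same spacer, opposite strand) and Bco1 (spacer of 1 base, opposite strand). Of all 32851 windows, 0.0974% held the repeat with 5 bases between, 0.268% that with 2 and 0.222% that with 1. The 120 bases before the start are shown for Rarb (chr14:16575477-16575596, minus strand) and Cyp26a1 (chr19:37697688-37697807, plus strand), since both are textbook targets of the receptors, with the half-sites in capitals.
Rarb: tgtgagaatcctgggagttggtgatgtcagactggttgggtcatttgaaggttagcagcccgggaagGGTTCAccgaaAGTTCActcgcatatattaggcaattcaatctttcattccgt
Cyp26a1: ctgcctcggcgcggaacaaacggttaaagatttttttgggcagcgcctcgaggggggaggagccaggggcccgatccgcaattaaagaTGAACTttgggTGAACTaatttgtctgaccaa
The repeat starts 53 bases before the start of Rarb and 32 bases before that of Cyp26a1. A match describes these letters and does not show binding in these cells.

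Values are FPKM, fragments scaled to transcript length and to all mapped fragments, and can be compared between genes because they are divided by length. Groups were compared with limma after taking log2(FPKM + 1), over the 14151 genes with a mean of at least 0.5 FPKM. Fold changes are on this scale and understate the change of low genes. Between 16841 and 18113 genes were above 0 in a library, and libraries correlated at 0.788 to 0.979 on the log scale. Library KO_214 had the lowest median correlation with the others (0.893), followed by KO_117 (0.901), and the lowest correlation of all was between these libraries. KO_214 also had 12.2% of its summed FPKM in its 10 highest genes, against 5.12% to 8.61% elsewhere. Med23 itself ranged from 10.1 to 12.9 FPKM in control and from 8.12 to 9.97 FPKM in Med23 CKO, which is -0.26 as a log2 fold change (standard error 0.18), a measure that includes exons outside the deleted ones. The stem cell markers Nes (61.1 to 240.5 FPKM) and Sox2 (69.4 to 194 FPKM) were present in every library, as was the myelin gene Mbp (66.5 to 2234 FPKM). The stem cell marker Hes5 was at 0.278 to 0.863 FPKM in WT_116, WT_213, KO_214 and KO_218, and at 3.94 to 6.72 FPKM elsewhere.

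Of the 9 genes, 8 passed the filter, and 0 of the 8 passed at an adjusted p under 0.05 from limma, as did 0% of all genes tested. At an unadjusted p under 0.05, 1 of the 8 was lower in Med23 CKO (background 0.996%) and 0 were higher (background 0.502%). That gene was Aldh1a3, also the only one of the 9 whose Med23 CKO values all lay below all control values (background 1.53%), and 0 had all Med23 CKO values above the control values (background 0.784%). The median log2 fold change was 0.18 over the 8 genes and -0.031 over all genes tested. Without KO_214 the difference in mean log2(FPKM + 1) was negative for Aldh1a1 (-0.14), Aldh1a2 (-0.12), Aldh1a3 (-0.69), Rarg (-0.23), Crabp1 (-0.29) and Crabp2 (-0.22). It was positive for Rara (0.28) and Rarb (0.16). In bulk RNA, fewer cells of a type and less RNA per cell cannot be told apart. Where nothing more is said, groups overlapped.

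**Figure D1:**
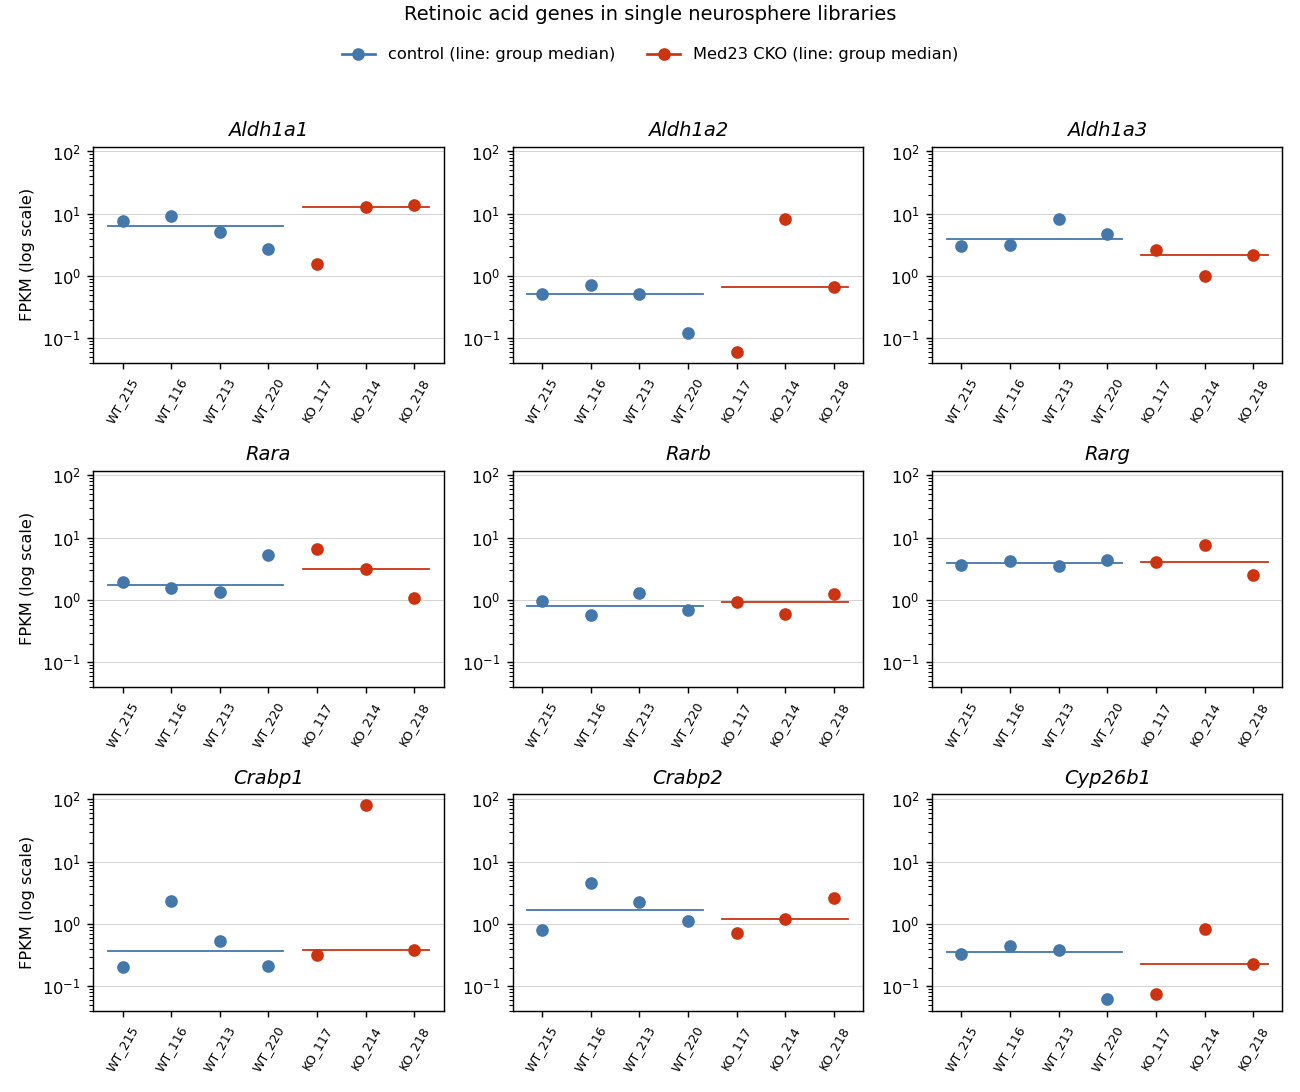
Each panel shows 1 gene, with FPKM on a log axis for each of the 7 libraries; points are single mice and horizontal lines are group medians. The 3 Med23 CKO points lie below the 4 control points for Aldh1a3 alone, and the highest point of all is Crabp1 at 81.4 FPKM in KO_214.

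The Aldh1a enzymes carry out the last step of synthesis, and in control neurospheres Aldh1a1 and Aldh1a3 were the most abundant of the 9 genes. Aldh1a3, on chromosome 7 from 66390890 to 66427517 (coordinates on GRCm38), stood at 3.01 (WT_215), 3.20 (WT_116), 8.33 (WT_213) and 4.70 FPKM (WT_220) in control and at 2.66 (KO_117), 1.001 (KO_214) and 2.16 FPKM (KO_218) in Med23 CKO. The groups did not overlap, but the gap between them was small, from 2.66 FPKM in KO_117 to 3.01 FPKM in WT_215. The control mean was 4.81 ± 2.46 FPKM (SD, n = 4), the Med23 CKO mean was 1.94 ± 0.850 FPKM (SD, n = 3), and the log2 fold change was -0.94 with a standard error of 0.37 (95% interval -1.79 to -0.087). The unadjusted p of limma was 0.0348 and the adjusted p was 0.9999. A two-sided exact permutation test of Aldh1a3 gave p = 0.0571, where the smallest p that 35 assignments of the group labels allow is 0.0286. Without KO_214 the log2 fold change was -0.69 and without WT_213 it was -0.68, and neither had an unadjusted limma p under 0.05.

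Aldh1a1, on chromosome 19 from 20492715 to 20643465, stood at 7.75 (WT_215), 9.27 (WT_116), 5.19 (WT_213) and 2.70 FPKM (WT_220) in control and at 1.56 (KO_117), 12.7 (KO_214) and 13.6 FPKM (KO_218) in Med23 CKO. The lowest and the highest library were thus both Med23 CKO, and the log2 fold change of 0.25 had a standard error of 0.66 (95% interval -1.30 to 1.80). Without KO_117 it was 1.07, with an unadjusted limma p of 0.0365 (adjusted p = 0.597). In that setting 362 of all genes tested were higher at an unadjusted p under 0.05, against 71 with all libraries. The log2 fold change of Aldh1a1 was -0.18 without KO_218, -0.14 without KO_214 and -0.039 without WT_220, so that the direction turned with single mice of either group. Aldh1a7, a close relative whose transcripts share 3.06% of the 50-base words of Aldh1a1 in GENCODE M21, was lower, at 0.311 to 2.20 FPKM, and was likewise lowest in KO_117 and highest in KO_218. How reads shared by both genes were assigned is not given in the sources used here.

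Aldh1a2, the enzyme known from the meninges, is on chromosome 9 from 71215789 to 71296243. It stood at 0.512 (WT_215), 0.713 (WT_116), 0.514 (WT_213) and 0.123 FPKM (WT_220) in control and at 0.0608 (KO_117), 8.28 (KO_214) and 0.680 FPKM (KO_218) in Med23 CKO. Only KO_214 was above 1 FPKM, and the 2 other Med23 CKO values lay within or below the control range. The log2 fold change of 0.81 (standard error 0.68, 95% interval -0.78 to 2.41) turned to -0.12 without KO_214, where the gene was under the filter and was not tested.

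The enzymes of synthesis therefore differed in make-up from library to library. Summed over the Aldh1a genes, control libraries averaged 11.5 ± 2.89 FPKM (SD, n = 4) and Med23 CKO libraries 14.2 ± 9.06 FPKM (SD, n = 3). The lowest sum (4.28 FPKM, KO_117) and the highest (21.98 FPKM, KO_214) were both in Med23 CKO. Aldh1a3 held 59.3% of the sum in WT_213, 62.5% in WT_220 and 62.1% in KO_117. In these 3 libraries it was the main enzyme, whereas Aldh1a1 led in the other 4, with 57.8% to 82.7%. Aldh1a3 held its smallest share, 4.55%, in KO_214, where Aldh1a2 held 37.7% against 1.42% to 5.41% elsewhere.

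**Figure D2:**
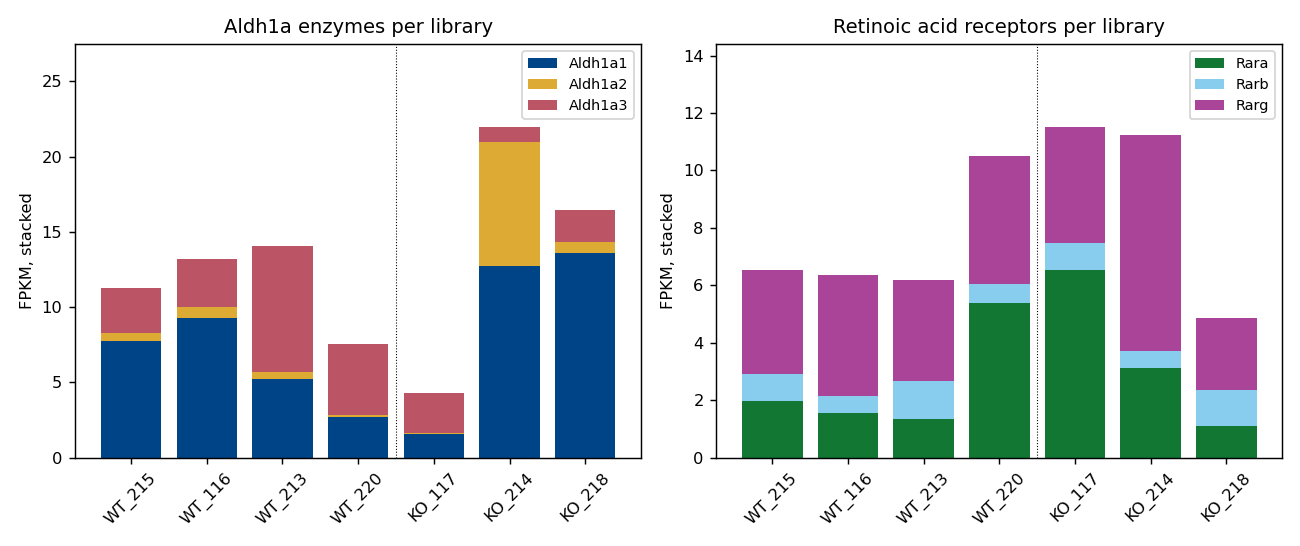
Bars show FPKM per library, stacked by gene, for the Aldh1a enzymes (left) and the Rar receptors (right), with control libraries left of each dotted line and Med23 CKO libraries right of it. The Aldh1a sum runs from 4.28 FPKM in KO_117 to 21.98 FPKM in KO_214, and Rara makes up the largest part of the receptor bar in WT_220 and KO_117 alone.

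The receptors, which turn the ligand into transcription, did not pass the test, with log2 fold changes between 0.039 and 0.30. Rarg, on chromosome 15 from 102234938 to 102257517, was the most even of these genes in control, with 3.62, 4.22, 3.53 and 4.46 FPKM in WT_215, WT_116, WT_213 and WT_220. In Med23 CKO it had 4.07, 7.52 and 2.51 FPKM in KO_117, KO_214 and KO_218, so that the highest and the lowest of its 7 values were both in Med23 CKO. Its log2 fold change of 0.11 (standard error 0.31, 95% interval -0.61 to 0.83) was -0.23 without KO_214.

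Rara, on chromosome 11 from 98927818 to 98974942, stood at 1.96 (WT_215), 1.55 (WT_116), 1.35 (WT_213) and 5.37 FPKM (WT_220) in control and at 6.52 (KO_117), 3.12 (KO_214) and 1.10 FPKM (KO_218) in Med23 CKO. The 2 highest libraries, WT_220 and KO_117, belong to different groups. The log2 fold change was 0.30 (standard error 0.51, 95% interval -0.89 to 1.50), and -0.15 without KO_117. The same libraries, WT_220 and KO_117, had the lowest values of Aldh1a1, Aldh1a2 and Cyp26b1.

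Rarb, on chromosome 14 from 16430839 to 16819156, is both a receptor and a target of the receptors through the repeat shown above. It stood at 0.949 (WT_215), 0.582 (WT_116), 1.30 (WT_213) and 0.685 FPKM (WT_220) in control and at 0.934 (KO_117), 0.605 (KO_214) and 1.25 FPKM (KO_218) in Med23 CKO. The groups covered almost the same range, and the highest value was only 2.23 times the lowest, the narrowest span of the 9 genes. The log2 fold change was 0.039 (standard error 0.23), and its 95% interval from -0.49 to 0.57 leaves room for changes of that size in either direction. Library KO_214, the highest in Aldh1a2, was among the lowest in Rarb, with less only in WT_116. Rarb overlaps Top2b on the opposite strand in GENCODE M21, and how strand was treated in counting is not given in the sources used here, so the reads of these genes may not be fully told apart. Of the receptors, Rarb held the smallest share of their sum in 6 of 7 libraries (5.38% to 21.0%), and in KO_218 it held 25.7% against 22.6% for Rara.

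**Figure D3:**
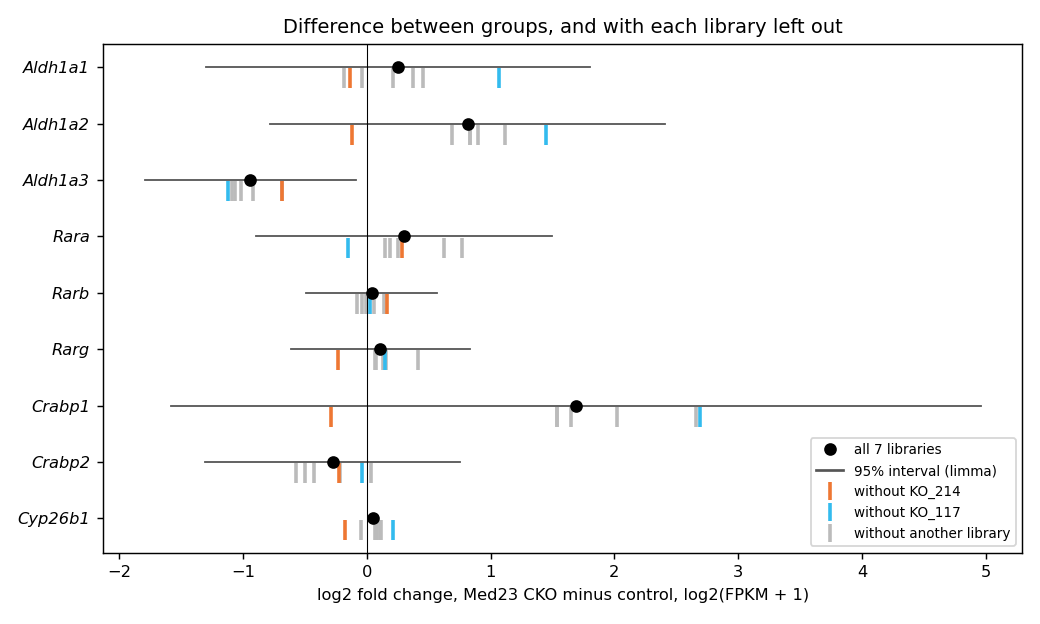
For each gene the black point is the difference in mean log2(FPKM + 1), Med23 CKO minus control, over all 7 libraries, the line its 95% interval from limma (none for Cyp26b1, which was under the filter), and the ticks the difference with 1 library left out. Aldh1a3 stays below 0 for every tick, while Crabp1 moves from 1.69 to -0.29 without KO_214.

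The Crabp proteins bind retinoic acid in the cytosol; Crabp2 is known for handing it to the receptors. Crabp1, on chromosome 9 from 54764748 to 54773110, held the largest single value of the 9 genes. It stood at 0.207 (WT_215), 2.34 (WT_116), 0.535 (WT_213) and 0.214 FPKM (WT_220) in control and at 0.323 (KO_117), 81.4 (KO_214) and 0.390 FPKM (KO_218) in Med23 CKO. Apart from KO_214, no Med23 CKO library exceeded 0.390 FPKM, and both lay within the control range. The log2 fold change was 1.69 (standard error 1.40, 95% interval -1.58 to 4.96; exact permutation test, two-sided, p = 0.543) and turned to -0.29 without KO_214.

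Crabp2, on chromosome 3 from 87948666 to 87953376, stood at 0.805 (WT_215), 4.49 (WT_116), 2.26 (WT_213) and 1.13 FPKM (WT_220) in control and at 0.706 (KO_117), 1.20 (KO_214) and 2.57 FPKM (KO_218) in Med23 CKO. KO_117 was just under the lowest control library, KO_214 and KO_218 lay within the control range, and the log2 fold change of -0.28 had a standard error of 0.44 (95% interval -1.31 to 0.75). Crabp2 was the more abundant of the pair in 6 of 7 libraries, with 65.8% to 86.9% of their sum, and in KO_214 it held 1.46%. The control library with the most Crabp2, WT_116, was also the control library with the most Crabp1.

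Cyp26b1, which oxidises retinoic acid for removal, is on chromosome 6 from 84571414 to 84593908 and was the lowest of the 9 genes in control, with a mean of 0.338 FPKM over the 7 libraries, under the filter. It stood at 0.333 (WT_215), 0.448 (WT_116), 0.380 (WT_213) and 0.0629 FPKM (WT_220) in control and at 0.0740 (KO_117), 0.842 (KO_214) and 0.228 FPKM (KO_218) in Med23 CKO. The difference in mean log2(FPKM + 1) was 0.051, turned to -0.18 without KO_214 and to -0.044 without WT_220, and a two-sided exact permutation test on all libraries gave p = 0.914. For the 9 genes together, the smallest exact permutation p was the 0.0571 of Aldh1a3, and 0 of 9 were under 0.05.

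In order of control mean, the genes ran Aldh1a1 (6.23 FPKM), Aldh1a3 (4.81 FPKM), Rarg (3.96 FPKM), Rara (2.56 FPKM), Crabp2 (2.17 FPKM), Rarb (0.879 FPKM), Crabp1 (0.823 FPKM), Aldh1a2 (0.465 FPKM) and Cyp26b1 (0.306 FPKM). Every pair of neighbours in this order overlapped in range over the 4 control libraries, and only Aldh1a2 was above its lower neighbour, Cyp26b1, in 4 of 4 libraries.

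Library KO_214, in which Crabp1, Aldh1a2, Rarg and Cyp26b1 had their highest values, also held the highest summed levels of fibroblast and meningeal, mural, endothelial, and microglia and macrophage markers. All 10 fibroblast and meningeal markers together summed to 2.94 to 20.9 FPKM in control, and to 3.22 (KO_117), 138 (KO_214) and 10.8 FPKM (KO_218) in Med23 CKO, with 8 of the 10 highest in KO_214 and 0 of them at 0 in all libraries. Among them the collagens Col1a2 and Col3a1 reached 46.6 and 38.4 FPKM in KO_214, while Slc6a13 was 0.203 FPKM there and Slc22a6 was 0.0099 FPKM. The 7 mural cell markers summed to 13.5 to 118 FPKM in control and to 9.19 to 432 FPKM in Med23 CKO. For 8 endothelial markers the sums were 10.9 to 72.1 FPKM and 7.02 to 130 FPKM, and for 9 microglia and macrophage markers 16.8 to 87.9 FPKM and 17.5 to 403 FPKM. The genes of these 3 lists with the highest means over the 7 libraries stood at 178 FPKM (Acta2), 27.1 FPKM (Cldn5) and 259 FPKM (Cd68) in KO_214. Cldn5 also reached 23.9 FPKM in WT_213. All 7 mural and all 8 endothelial markers were highest in KO_214, and so were 7 of the 9 microglia and macrophage markers. Of the others, Cx3cr1 was 0.157 FPKM in KO_214 and 0.782 FPKM in WT_213, and P2ry12 was 1.24 FPKM in KO_214 and 1.60 FPKM in WT_116. KO_214 had the highest sum of each of these 4 lists, and WT_220 and KO_117 were among the 3 lowest of each. Other lists were not highest in KO_214, where neuron markers summed to 44.8 FPKM, oligodendrocyte lineage markers to 2783 FPKM and choroid plexus and ependymal markers to 38.1 FPKM, against highest sums of 65.8 FPKM (WT_116), 4641 FPKM (WT_116) and 652 FPKM (WT_215). Neural stem cell markers summed to 2053 FPKM in KO_214, against a highest sum of 3808 FPKM in KO_117. Of these, Gfap was highest in KO_214 (321 FPKM), and Nes (61.1 FPKM), Fabp7 (203 FPKM) and Pax6 (3.80 FPKM) were lowest there. Sox2, Slc1a3, Vim and Hes5 were neither highest nor lowest in KO_214. Aldh1a3 had its lowest value in KO_214. The part of any of these cell types in the values of Crabp1, Aldh1a2, Rarg, Cyp26b1 and Aldh1a3 was not tested.

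**Figure D4:**
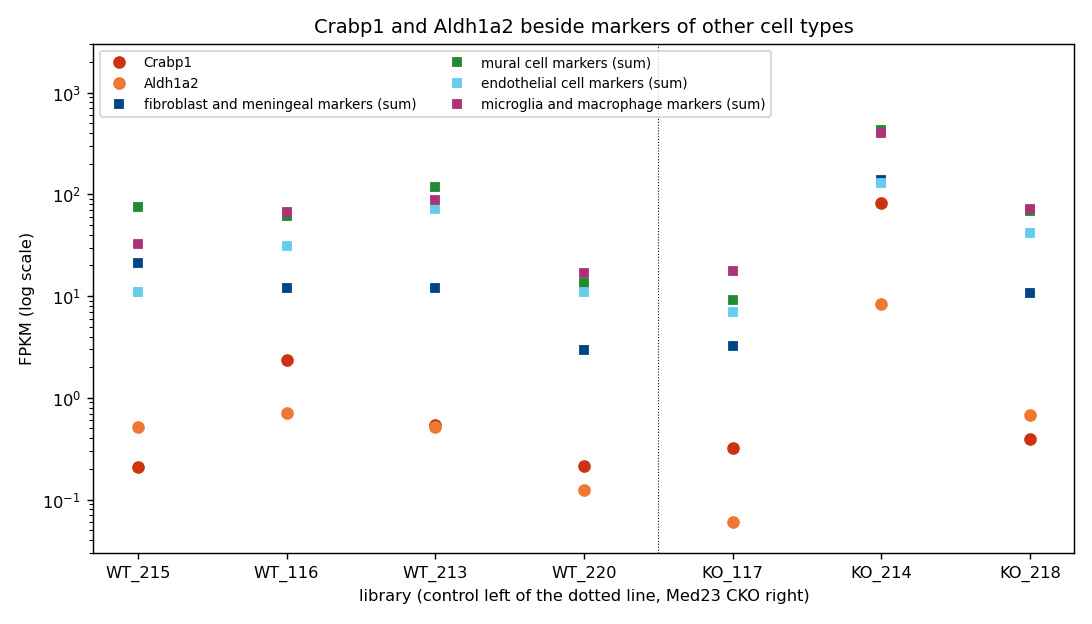
FPKM on a log axis for Crabp1 and Aldh1a2 (circles) and for the summed markers of 4 other cell types (squares) in each library, control left of the dotted line. All 6 series have their highest point in KO_214, with Crabp1 at 81.4 FPKM and fibroblast and meningeal markers at 138 FPKM.

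The wider retinoid pathway was described with lists of 55 further genes, 37 of which passed the filter. Of the 37, 22 had a positive and 15 a negative log2 fold change, against 6196 and 7955 of the 14151 genes tested. The median of the 37 was 0.033 against -0.031 for all genes tested, and 0 passed at an adjusted p under 0.05 from limma. At an unadjusted p under 0.05, 1 was higher (Rxra, background 0.502%) and 1 lower (Meis1, background 0.996%).

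Retinol has to be taken up and carried before it can be oxidised. Of 11 genes for uptake, storage and transport, 6 were tested and none passed. Ttr, which carries the retinol-binding protein Rbp4 in plasma and cerebrospinal fluid, had 630 FPKM in WT_215 and 7.89 to 63.4 FPKM in the other 6 libraries. From the choroid plexus and ependymal list, Folr1 (4.58 FPKM), Clic6 (5.33 FPKM), Otx2 (3.11 FPKM) and Kl (0.426 FPKM) were highest in WT_215 too. The rest of that list was not, with Foxj1 highest in KO_214 (13.7 FPKM), Ccdc153 in WT_116 (0.580 FPKM) and Tmem212 in WT_213 (0.578 FPKM). Stra6, the membrane receptor for Rbp4, was at most 0.344 FPKM. Lpl, a lipase that can release retinol from lipoproteins, had its highest value in KO_214 (251 FPKM), and its log2 fold change of 1.23 (standard error 0.95) was 0.21 without that library.

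Of 14 oxidoreductases of retinol and retinal, 12 were tested and none passed. The most abundant were Adh5 (109 FPKM on average over the 7 libraries, log2 fold change 0.037) and Rdh11 (35.7 FPKM, log2 fold change -0.078), both with highest values at most 1.52 times the lowest. Rdh10, the main embryonic retinol dehydrogenase, averaged 8.62 ± 3.41 FPKM (SD, n = 4) in control libraries and 10.7 ± 6.28 FPKM (SD, n = 3) in Med23 CKO libraries. Dhrs3, which reduces retinal back to retinol and is a receptor target, had 1.17 to 5.06 FPKM in control and 0.857 (KO_117), 21.9 (KO_214) and 5.12 FPKM (KO_218) in Med23 CKO, and its log2 fold change of 0.71 (standard error 0.81) turned to -0.21 without KO_214.

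The partner Rxra stood at 8.06 (WT_215), 8.19 (WT_116), 7.88 (WT_213) and 7.35 FPKM (WT_220) in control and at 10.8 (KO_117), 16.4 (KO_214) and 9.31 FPKM (KO_218) in Med23 CKO. The groups were separate, with Med23 CKO values from 9.31 FPKM upward and control values up to 8.19 FPKM, the only such gene among the 37 (background 0.784%). Its log2 fold change was 0.53 (standard error 0.22), with an unadjusted limma p of 0.0432 and an adjusted p of 0.9999. Without KO_214, which had the highest value, it was 0.32 with an unadjusted limma p of 0.137. The unadjusted p was also above 0.05, at 0.054 to 0.086, without each of the 4 control libraries and without KO_117, and below it only without KO_218 (0.021). Rxrb (log2 fold change -0.21, standard error 0.31) and Ppard (-0.097, standard error 0.26) overlapped between groups. Rxrg was under the filter. None of the 10 corepressors and coactivators passed, the most abundant being Hdac3 (log2 fold change -0.11) and Ncor1 (-0.018), which are parts of the repressor complex that sits on receptors without ligand.

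Of 18 established targets outside the 9 genes, 8 were tested. Meis1, a homeobox factor, stood at 6.42 (WT_215), 4.29 (WT_116), 7.06 (WT_213) and 8.72 FPKM (WT_220) in control and at 4.57 (KO_117), 2.27 (KO_214) and 2.95 FPKM (KO_218) in Med23 CKO. The groups overlapped, since KO_117 was above WT_116. Its log2 fold change was -0.84 (standard error 0.29), with an unadjusted limma p of 0.0202 and an adjusted p of 0.9999. Without KO_214 it was -0.67 with an unadjusted limma p of 0.0682, and without WT_213, WT_220 or KO_218 the p was between 0.0509 and 0.0578. Its relative Meis2, among the most abundant of the list, stood at a log2 fold change of -0.63 (standard error 0.48), and at -0.23 without KO_214. The classic targets Cyp26a1 (at most 0.166 FPKM) and Stra8 (at most 0.120 FPKM) were near or at 0 in every library, and no difference was detectable at such levels.

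**Figure D5:**
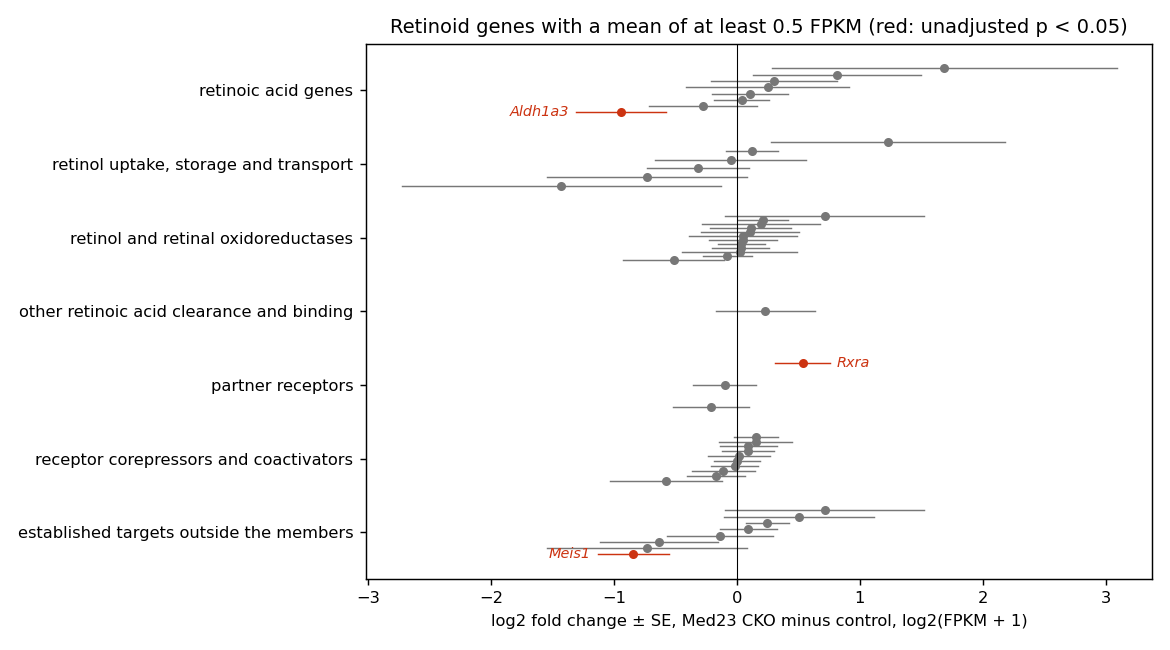
Points are log2 fold changes, Med23 CKO minus control, on the log2(FPKM + 1) scale with bars of ± 1 standard error from limma, for the tested genes of each list, and a gene in 2 lists appears in both. Only Aldh1a3, Rxra and Meis1, in red, had an unadjusted p under 0.05, and 0 genes passed after adjustment.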

How the data were processed

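RNA-seq libraries from primary neurospheres of 4 control and 3 Med23 CKO mice were matched to groups by their genotype labels and to columns by sample title. The paper's text gives n = 3 in each group and does not name the control mice, so all 4 control libraries were kept. The authors removed adapters with cutadapt, aligned the trimmed reads with TopHat (default settings, mm10) and used Cuffdiff for the FPKM of each gene, which were deposited per library (the versions of TopHat and Cuffdiff and the annotation are not given in the sources used here). The deposited table also holds group means and the authors' fold changes, p-values and q-values, which were not used, and 0 columns of unmapped samples. Low FPKM values gave no whole fragments (the fullest 0.05-log2 bin held at most 3.73% of low genes over 21 pairs of libraries), so depth is unknown and no interval that needs it is given.

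Values were analysed as log2(FPKM + 1), for genes with a mean of at least 0.5 FPKM, with limma 3.58.1 (trend) in R 4.3.3, two-sided, with Benjamini-Hochberg adjustment over all 14151 genes. Cuffdiff's test needs fragments, so limma took its place. Fits were tested on simulated data. Single genes were also tested by exact permutation. Each library comes from 1 mouse. The genes, lists and tests were chosen with earlier results of these data known. Named genes were the 9, genes of the wider lists at an unadjusted p under 0.05, the 2 most abundant of each list, the most abundant marker of lists set beside a result, and the 3 genes most correlated with each tested gene. Others (Aldh1a7, Rdh10, Dhrs3, Rbp4, Stra6, Stra8, Cyp26a1, Rxrg, the marker genes and those called only under an alternative) were named after their values were seen. A few genes of the wider lists are counted but not reported here by name. Positions and overlaps are from GENCODE M21 and promoters from RefSeq, both on GRCm38 (mm10). Alternatives were a pseudocount of 0.1, no filter, a mean of at least 1 FPKM, quantile normalization, median centring, limma without trend, array weights (whose fit stopped before full convergence), Xist level as a covariate, the ratio of group means on a log2 scale, and each library left out.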

Additional observations from a re-analysis of the deposited data

Results flagged for a closer look

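In 9 control groups of 4 libraries, the gap of the highest or lowest library to its neighbour was compared with the whole range. There was 1 group for each gene, and chance flags about 1 group in 20 where values are normally distributed. The FPKM were not put on a log scale here and the 9 groups share the same 4 libraries, so the rate for these values is not known. Rara was flagged at 5.37 FPKM in WT_220, with a gap of 0.849 of the range of the 4 control libraries. Crabp1 was flagged at 2.34 FPKM in WT_116, with a gap of 0.846 of the range. Groups of 3 libraries, as in Med23 CKO, were not tested in this way, so the 81.4 FPKM of Crabp1 in KO_214 is not among them.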

How the results depend on the processing

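When 1 library at a time was left out, the log2 fold change of Aldh1a3 ran from -1.12 to -0.68, negative every time, and that of Aldh1a1 from -0.18 to 1.07. The ranges were -0.12 to 1.45 for Aldh1a2, -0.15 to 0.77 for Rara, -0.078 to 0.16 for Rarb, -0.23 to 0.41 for Rarg, -0.29 to 2.69 for Crabp1, -0.57 to 0.035 for Crabp2 and -0.18 to 0.21 for Cyp26b1, all with either sign. At an unadjusted p under 0.05, the 9 genes then gave 0 to 1 higher and 0 to 1 lower. The wider lists gave 0 to 3 higher (3, Dhrs3, Lpl and Tgm2, without KO_117) and 0 to 1 lower. Calls rose over all genes tested too, to 362 higher and 410 lower without KO_117, from 71 and 141 with all 7 libraries. Aldh1a3 kept an unadjusted limma p under 0.05 without WT_215, WT_116 or KO_117, and not without WT_213, WT_220, KO_214 or KO_218. It also missed it in limma with quantile normalization (log2 fold change -0.96, unadjusted p of 0.0506) and with Xist as a covariate (-0.95, unadjusted p of 0.0510), where 0 of the 9 genes were lower. Xist, a sex-linked gene, was at 91.3 FPKM in WT_220 and 110.8 FPKM in KO_218 and at most 0.565 FPKM in the other libraries. The sex-linked gene Ddx3y ran the other way, at 0.0735 FPKM in WT_220, 0.574 FPKM in KO_218 and 11.9 to 35.7 FPKM elsewhere. Outside its behavioural tests the paper used mice of either sex. With array weights the sign turned for Rara (-0.18), Rarg (-0.25) and Crabp2 (0.18), and the log2 fold change of Rxra was 0.31 with an unadjusted limma p of 0.104. There 2 genes of the wider lists, Meis1 among them, were lower, as were 887 of all genes tested, against 141 without weights. Without a filter, 2 of the wider lists, Rxra and Hoxa5, were higher, as were 140 of all genes, against 71 with the filter. Hoxa5 was at most 0.0645 FPKM in any library, and its log2 fold change was 0.078. The causes of these changes were not tested. In every alternative, 0 of the 9 genes and of the wider lists passed at an adjusted p under 0.05. No paired analysis was possible because the groups share no replicate numbers. With 3 against 4 libraries and unknown depth, the intervals of the 8 tested genes are wide.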

Other observations

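For each of the 8 tested genes, the genes with the most similar values were sought among 14143 others by Pearson's correlation of log2(FPKM + 1) over the 7 libraries, as a description that covers both groups and says nothing of shared function. The gene most like Aldh1a3 was the splicing factor gene Zrsr2 (r = 0.956), followed by Mphosph6 (0.952) and Il1f9 (0.936), and for Rarb the nearest were Aph1b (0.962), Zfp3 (0.960) and Klhl7 (0.958). Rara was most like Aldoa, an enzyme of glycolysis (r = 0.998), which had 1242 FPKM in WT_220 and 1384 FPKM in KO_117 against 360 to 731 FPKM elsewhere, then Klhl36 (0.994) and Bsg (0.991). Aldh1a1 was nearest to E030003E18Rik (0.992), Kcnip4 (0.990) and Dpyd (0.988), Rarg to Os9 (0.995), Flot1 (0.986) and Rtfdc1 (0.976), and Crabp2 to Rasl10a (0.988), Fhit (0.977) and Pkd2l2 (0.970).

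Aldh1a2, Crabp1 and the genes nearest to them all had their highest values in KO_214. Correlations without that library were not computed. Those nearest to Aldh1a2 were Oasl2 (r = 0.997), an interferon-induced gene, Plin2 (0.997), which coats lipid droplets, and Bcl3 (0.996). Plin2 had 295 FPKM in KO_214 and 25.8 to 48.3 FPKM in the other libraries. Those nearest to Crabp1 were Dap (0.997), the neurokinin receptor gene Tacr1 (0.996) and the angiotensin receptor gene Agtr2 (0.993). Agtr2 had 6.42 FPKM in KO_214, 0.268 FPKM in WT_116 and at most 0.0211 FPKM in the other 5 libraries.

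Fabp5, another carrier of retinoic acid in the cell, exceeded the summed Crabp1 and Crabp2 in every library, with 343 to 878 FPKM. Its highest values were in KO_117 (878 FPKM) and WT_220 (817 FPKM), and its log2 fold change was 0.23 (standard error 0.41).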
